A study of Mus musculus with 2 samples.

Results

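Hyperpolarization-activated, cyclic nucleotide-gated (HCN) channels carry the current Ih of neurons and of cardiac pacemaker cells. The genes described here are 3 that encode pore subunits of these channels, Hcn2, Hcn3 and Hcn4, and Pex5l, which encodes Trip8b, an auxiliary subunit of HCN channels in brain. They were chosen by gene symbol, as a named set and not by any measured value, though with earlier results of these data known. They make up 4 of the 55536 annotated genes in the deposited gene tables. All 4 symbols were found, each in 1 row per library. The 3 HCN genes are not the whole HCN family, and values below refer to these genes alone.

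The series holds total RNA of left cerebral cortex from 2 B6CASTF1/J mice, female and 36 days old, a cross whose parents are the C57BL/6J and CAST/EiJ strains. Both animals are in 1 group, with 1 library each, and the labels give neither a treatment nor an engineered allele. Libraries were made from 300 ng of RNA, reduced in ribosomal RNA and given synthetic spike-in RNAs. The labels number the animals as biological replicates 1 and 2, so the data describe levels in this cortex and the spread between those animals, and no p-value was computed.

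The libraries of replicates 1 and 2 summed to 29417200 and 35188800 expected counts, to the nearest 100. Markers of cortical tissue were present in both animals. The median level of 5 pan-neuronal markers was 424 ± 49.4 TPM (the deposited transcript abundance, corrected for transcript length and scaled to a fixed total; mean ± SD over n = 2 mice, here and below), that of 4 excitatory markers 337 ± 4.03 TPM, of 6 inhibitory markers 46.0 ± 4.82 TPM and of 4 layer 5 markers 24.9 ± 0.0389 TPM. Glial and vascular lists were also detected, with medians of 237 ± 63.0 TPM for oligodendrocytes, 51.8 ± 0.431 for astrocytes, 18.1 ± 0.626 for microglia, 17.4 ± 1.92 for oligodendrocyte precursors, 14.6 ± 3.22 for endothelium and 6.49 ± 0.332 for mural cells. Lists for neighbouring regions were lower, at 5.53 ± 0.0177 TPM for striatum, 2.76 ± 0.159 for hippocampus and 2.68 ± 0.403 for thalamus. Of the 5 thalamic markers 4 reached 1 TPM in both animals, the highest being Slc17a6 at 13.9 and 9.80 TPM and Prkcd at 6.47 and 3.98, and the lowest Gbx2 at 0.05 and 0.

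HCN channels open when the membrane becomes more negative than rest, pass sodium and potassium ions, and open more readily when cyclic AMP binds a domain behind the pore. A functional channel is a ring of pore subunits, which may be of the same or of different kinds. Trip8b binds the subunits through their extreme carboxyl end and through the cyclic nucleotide-binding domain. It reduces the response to cyclic AMP and, depending on which first exons and cassette exons its mRNA carries, raises or lowers the number of channels at the cell surface. In pyramidal neurons of cortex and hippocampus, HCN channels and Trip8b are concentrated in the outer part of the apical dendrite. Hcn2 and Hcn4 are also known from thalamic neurons and the heart, Hcn4 being the main subunit of the sinoatrial node.

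Sequences of the HCN transcripts are shown at the pore because the ion selectivity filter is the element common to HCN channels. The windows below run 5′ to 3′ on the strand of the gene, in the mm10 assembly (GRCm38), and come from the GENCODE M21 transcripts Hcn2-202, Hcn3-201 and Hcn4-201. Capitals mark the 5 codons of the filter, with 5 codons on each side in lower case.
Hcn2, chr10:79728938-79728982, plus strand: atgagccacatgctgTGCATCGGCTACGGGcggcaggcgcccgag
Hcn3, chr3:89150991-89151035, minus strand: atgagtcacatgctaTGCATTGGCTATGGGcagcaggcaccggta
Hcn4, chr9:58855570-58855614, plus strand: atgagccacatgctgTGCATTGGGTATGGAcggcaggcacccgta

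The filter was found by searching each coding sequence for codons of the same 5 residues, so it encodes the same residues in all 3 genes by construction. It begins at codon 400 in Hcn2, 310 in Hcn3 and 478 in Hcn4, and lies in exon 4 of each. Of the 45 bases in the window, 36 were identical between Hcn2 and Hcn3, 38 between Hcn2 and Hcn4 and 39 between Hcn3 and Hcn4. The gene structures matched closely. Each leading transcript has 8 exons, and exons 3 to 7 have lengths of 162, 219, 147, 241 and 165 bases in all 3 genes. Over those 934 bases, Hcn2 and Hcn4 were identical at 83.4% of positions, Hcn3 and Hcn4 at 81.8%, and Hcn2 and Hcn3 at 78.9%. Exon 6 set Hcn3 apart, with 72.6% identity to Hcn2 and 71.0% to Hcn4, where Hcn2 and Hcn4 were at 85.1%.

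The genes differ in length mainly at their ends. Coding sequence takes up 863 codons in Hcn2, 779 in Hcn3 and 1201 in Hcn4. The first exon holds 551, 275 and 785 coding bases respectively, and the last exon holds 680, 698 and 1460. Despite the likeness in the shared exons, the longest run of identical bases between any 2 of the leading transcripts was 33 bases, for Hcn2 and Hcn3, and 32 bases for each of the other 2 pairs.

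The end of each coding sequence is shown because the last residues are where Trip8b docks. These are the last 10 codons before the stop, with the final 3 in capitals.
Hcn2, chr10:79735508-79735537, plus strand: tctgcgcgctcgcgcctctctTCCAACTTG
Hcn3, chr3:89147602-89147631, minus strand: cccagaggtccccaaatttctGCCAACATG
Hcn4, chr9:58860731-58860760, plus strand: ccagtacgctccaaactgccgTCTAATTTA

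By the standard code, the final codons of Hcn2 (TCC, AAC, TTG) and of Hcn4 (TCT, AAT, TTA) encode the same 3 residues. Hcn3 (GCC, AAC, ATG) shares the middle residue with them and has other residues on either side of it. No protein measurement was made, so binding to Trip8b cannot be read from these data.

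Hcn2 was the most abundant of the 3 pore genes. Its gene, ENSMUSG00000020331.9, lies at chr10:79716634-79736108 on the plus strand, and its product gives a channel with a strong response to cyclic AMP. Its level was 62.6 TPM in the first animal and 61.8 TPM in the other, a mean of 62.2 ± 0.523. These levels rested on 3623 and 4842 expected counts, with 95% exact Poisson intervals of 3506 to 3743 and 4707 to 4980. Among 12742 nuclear protein-coding genes with at least 1 TPM in both animals, whose median was 15.4 TPM, Hcn2 was at percentile 87.1. It was number 21 from the top among the 126 so expressed of 186 ion channel genes taken by symbol, whose median was 25.6 TPM. The symbols take in auxiliary subunits too, so this is not a rank among pore genes alone.

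Hcn3 was a low-level transcript. Its gene, ENSMUSG00000028051.10, lies at chr3:89146074-89160196 on the minus strand, and its product is known for a weak response to cyclic AMP. It was at 6.42 and 5.24 TPM in replicates 1 and 2, a mean of 5.83 ± 0.834. The counts were 312 (278 to 349) and 394 (356 to 435), with 95% exact Poisson intervals in parentheses. Hcn3 stood at percentile 23.4 of the expressed coding genes and was number 107 of the 126 channel genes.

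Hcn4 was the least abundant of the set in both animals. Its gene, ENSMUSG00000032338.9, lies at chr9:58823412-58863175 on the plus strand. The 2 animals gave 1.81 and 1.85 TPM, a mean of 1.83 ± 0.0283, on 204 (177 to 234) and 282 (250 to 317) counts with their 95% exact Poisson intervals. That placed Hcn4 at percentile 5.12 of the expressed coding genes and at number 118 of the 126 channel genes, just above the 1 TPM limit used for expression.

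Pex5l was more abundant than any of the 3 pore genes in both animals. It is ENSMUSG00000027674.16 and spans chr3:32949408-33143247 on the minus strand. Replicate 1 gave 128 TPM and replicate 2 gave 100.2 TPM, a mean of 114 ± 19.6, on 6687 (6528 to 6849) and 7034 (6871 to 7200) counts with their 95% exact Poisson intervals. It stood at percentile 94.3 of the expressed coding genes. For each of the 4 genes the expected counts were whole numbers and the deposited posterior SD of the count was 0 in both libraries, so the authors' counting shared no reads between these genes and other genes.

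**Figure D1:**
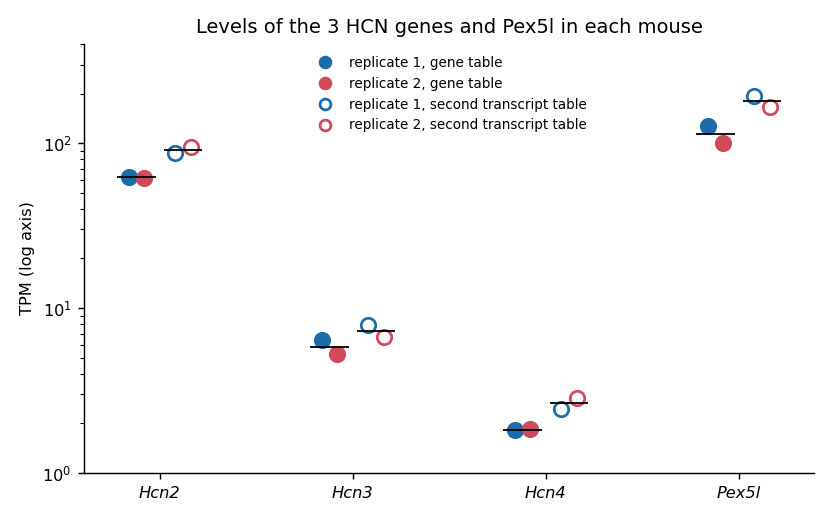
Level of each gene in TPM on a log axis, 1 point per mouse, from the gene table (filled) and the second transcript table (open), with bars at the mean of the 2 mice. Both tables and both mice give the order Pex5l, Hcn2, Hcn3, Hcn4, from 114 TPM down to 1.83 TPM in the gene table means.

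The order Pex5l, Hcn2, Hcn3, Hcn4 was the same in each animal, and no neighbours in it overlapped between animals. Within a library, Hcn2 was 9.75 and 11.8 times Hcn3 in TPM (mean 10.8 ± 1.45) and 34.6 and 33.4 times Hcn4 (34.0 ± 0.811). Hcn3 was 3.55 and 2.83 times Hcn4 (3.19 ± 0.505), the smallest step among the pore genes. Both ratios with Hcn3 use its gene TPM, part of which came from short non-coding transcripts on few reads. The coding transcript Hcn3-201 alone was at 3.93 and 3.75 TPM. Against it the step up to Hcn2 is larger and the step down to Hcn4 is smaller. The level of Pex5l was 1.81 and 1.45 times that of the 3 HCN genes summed, a mean of 1.63 ± 0.250. Length matters for these ratios, since the Hcn4 transcript is the longest at 6118 bases against 3195 for Hcn2-202 and 4002 for Hcn3-201. In raw expected counts, which grow with length, Hcn3 exceeded Hcn4 by 1.46 times and Hcn2 exceeded Hcn4 by 17.5 times.

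Absolute TPM depended on what the total contained. The 7SL RNA genes Rn7s1 and Rn7s2 took, in the gene table, 24.3% and 30.1% of TPM in replicates 1 and 2, and nuclear protein-coding genes took 46.8% and 41.8%. Rescaled so that nuclear protein-coding genes alone summed to the TPM total, mean levels were 141 ± 10.1 for Hcn2, 13.1 ± 0.832 for Hcn3, 4.14 ± 0.396 for Hcn4 and 256 ± 23.8 for Pex5l. On this scale Hcn2 read 134 and 148 in the 2 animals, higher in replicate 2, although its deposited TPM was marginally lower there. The authors' second transcript quantification gave 91.3 ± 4.99 TPM for Hcn2, 7.31 ± 0.850 for Hcn3, 2.66 ± 0.290 for Hcn4 and 180 ± 18.5 for Pex5l, in the same order.

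The 2 animals were compared in CPM (counts per unit of library size, with edgeR's TMM scaling), as a log2 ratio of replicate 2 over replicate 1. Hcn2 was at 122 and 140 CPM, a log2 ratio of 0.21 with a 95% counting interval of 0.14 to 0.27. Hcn4, at 6.85 and 8.18 CPM, had a ratio of 0.25 (-0.0099 to 0.52), and Hcn3, at 10.5 and 11.4 CPM, a ratio of 0.12 (-0.093 to 0.34). Pex5l was lower in replicate 2, at 225 and 204 CPM, with a ratio of -0.14 (-0.19 to -0.091). For Hcn3 the direction depended on the measure, since its TPM was lower in replicate 2, also after rescaling (13.7 and 12.5). Counting intervals cover read sampling only and not the spread between mice.

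None of the 4 genes was 2-fold or more apart between the animals, where 0.753% of the 12615 genes averaging 100 or more counts were, 95 genes in all. The median absolute log2 ratio of those genes was 0.13 and their median was 0.023. Ratios at least as large in size as that of the member were found in 28.7% of them for Hcn2, 50.9% for Hcn3, 20.4% for Hcn4 and 46.6% for Pex5l. Scaling to the spike-ins moved the median of all these genes to -0.42, and with it the ratios to -0.24 for Hcn2, -0.32 for Hcn3, -0.19 for Hcn4 and -0.59 for Pex5l. The sign of the 3 HCN ratios therefore flips with that scaling. A change of scaling shifts all these genes nearly alike, so by construction the HCN genes stayed above the median gene and Pex5l below it. Marker lists were also compared between the animals, in genes averaging 100 or more counts on the TMM scale. Of all 12615 such genes, 55.1% were higher in replicate 2, so several of the lists lie near the background. The largest median log2 ratio was that of the striatal list, 0.44, with 4 of 4 genes higher in replicate 2. It was 0.19 for mural cells (3 of 4 higher), 0.11 for astrocytes (5 of 5), 0.10 for layer 5 (3 of 4), 0.086 for the pan-neuronal list (3 of 5), 0.079 for hippocampus (1 of 2), 0.060 for inhibitory neurons (4 of 6), 0.048 for microglia (2 of 4) and 0.025 for endothelium (2 of 3). Medians below 0 were those of oligodendrocytes, -0.14 (0 of 5 higher), thalamus, -0.12 (0 of 3), oligodendrocyte precursors, -0.068 (1 of 3), and excitatory neurons, -0.039 (2 of 4). Their part in the differences of the members was not tested, and in bulk tissue fewer cells of a type and less RNA per cell cannot be told apart.

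**Figure D2:**
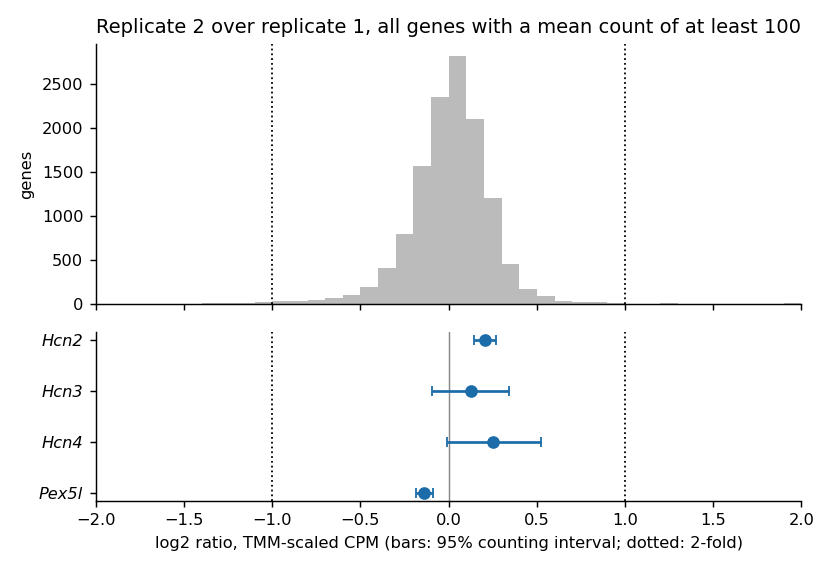
Upper panel, number of genes by log2 ratio of replicate 2 over replicate 1 in TMM-scaled CPM, for the 12615 genes averaging 100 or more counts, with genes beyond the axis added to the end bins. Lower panel, the ratios of the 4 members with 95% counting intervals, all between the dotted 2-fold limits, Hcn2 at 0.21 and Pex5l at -0.14.

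At the transcript level Hcn2 and Hcn4 were simple. All of the Hcn2 TPM in the first transcript table was assigned to Hcn2-202. The second table gave that transcript 99.3% and 100% in replicates 1 and 2. The other annotated transcript, Hcn2-201, has the same coding length of 2589 bases. Hcn4-201 is the sole annotated transcript of Hcn4.

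Hcn3 had 1 coding and 3 non-coding annotated transcripts. The coding transcript Hcn3-201 was at 3.93 and 3.75 TPM, or 61.2% and 71.6% of the gene's TPM (66.4% ± 7.32). It held 92.9% of the gene's expected counts on average, and 67.6% and 89.4% of TPM in the second table. The difference between those measures came with the short non-coding transcripts, where few reads make a large TPM. Hcn3-204, a processed transcript of 627 bases, took 17.8% and 19.1% of TPM on 11.3 and 13.3 expected counts. Hcn3-202 (retained intron, 533 bases) took 13.7% in replicate 1, on 7.18 counts, and 0 in replicate 2. Hcn3-203 (retained intron, 909 bases) took 7.32% and 9.35% on 7.08 and 10 counts, but 26.8% and 0 in the second table. The non-coding part of Hcn3 was thus not resolved at this depth.

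Pex5l had the richest transcript structure, with 12 annotated transcripts, of which 9 are coding. They differ by where they start and by cassette exons, the parts of Trip8b known to set its effect on channel number at the cell surface. The coding bases of both main first coding exons and of both cassette exons are shown here 5′ to 3′ on the minus strand of chromosome 3 in mm10, from GENCODE M21, with the start codon in capitals.
Distal first exon, chr3:33142849-33142869: ATGtaccagggacacatgcag
Proximal first coding exon, chr3:33081976-33082068: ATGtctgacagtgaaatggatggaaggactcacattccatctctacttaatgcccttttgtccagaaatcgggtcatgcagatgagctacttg
Cassette exon of 72 bases, chr3:33080465-33080536: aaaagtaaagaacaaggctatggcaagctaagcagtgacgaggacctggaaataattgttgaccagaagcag
Cassette exon of 105 bases, chr3:33024696-33024800: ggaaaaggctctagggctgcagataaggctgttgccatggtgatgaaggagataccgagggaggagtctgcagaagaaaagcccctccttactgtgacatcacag

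The distal first exon is at the start of the gene and contributes 21 coding bases. The proximal starts lie 60.2 kb downstream and contribute 93 coding bases in the exon shown. The cassettes follow at 62.7 kb and 118.4 kb. An internal start, 158.2 kb into the gene, belongs to the short coding transcript Pex5l-203 alone. Both cassette lengths are multiples of 3, so including or skipping either one keeps the reading frame.

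Pex5l-206, which joins the distal first exon to the common exons with neither cassette, was the leading transcript of the first table. It took 35.2% and 36.0% of the gene's TPM, a mean of 35.6% ± 0.571, at 45.1 and 36.1 TPM. Next was Pex5l-205, which starts proximally and carries the 72-base exon, at 23.3% and 16.5%. Pex5l-209, proximal with both cassettes, took 11.3% and 18.8%. The retained-intron transcript Pex5l-202, which starts distally, took 10.5% and 12.03%. The other transcripts above 1% were Pex5l-204 at 3.88% and 5.86%, Pex5l-211 at 6.12% and 3.33%, Pex5l-212 at 4.93% and 3.68% and Pex5l-207 at 4.00% and 3.77%.

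The second table divided the same gene differently. It put Pex5l-206 at 25.2% and 24.1% and Pex5l-209 at 24.3% and 28.8%, so that Pex5l-206 led in replicate 1 (48.6 against 47.0 TPM) and Pex5l-209 in replicate 2 (48.0 against 40.2 TPM). Pex5l-205 ranked behind Pex5l-204 there, at 8.09% and 6.01% against 12.7% and 13.6%. Pex5l-203, listed at 0 in the first table, took 7.02% and 9.52%. Which coding transcript of Pex5l was the most abundant therefore depended on the quantifier. The first table's own posterior SD of the count was 137 and 113 for Pex5l-206, on 2135 and 2313 counts, and 165 and 142 for Pex5l-209, on 930 and 1634 counts.

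**Figure D3:**
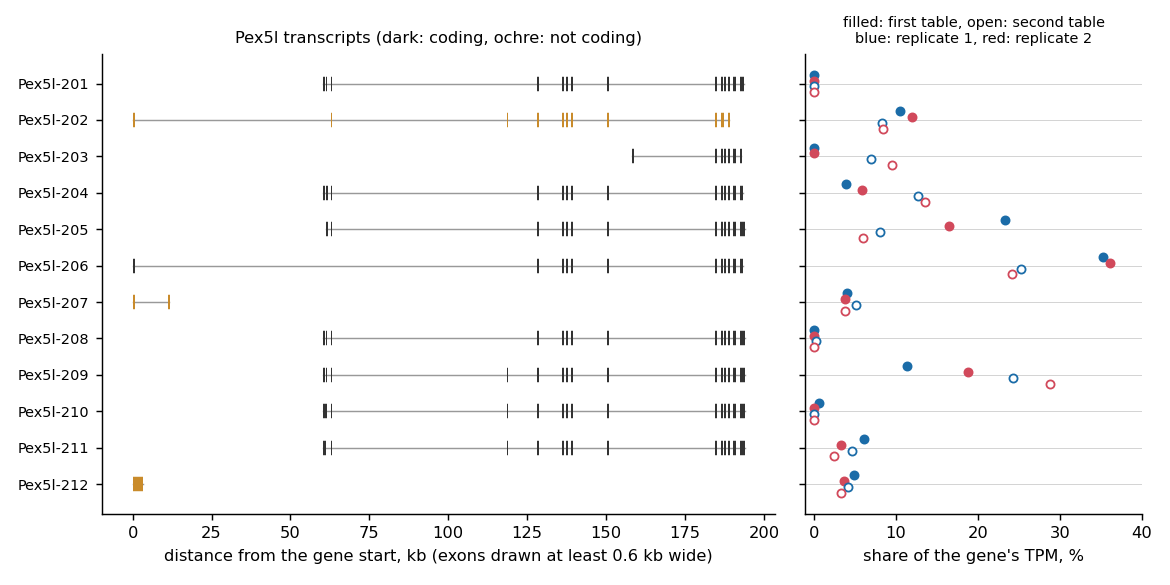
Left, exons of the 12 annotated Pex5l transcripts by distance in kb from the start of the gene, coding transcripts dark and non-coding ones ochre. Right, each transcript's share of the Pex5l TPM in percent, in both mice and both transcript tables, where Pex5l-206 leads the first table at 35.6% on average and shares the lead with Pex5l-209 in the second.

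Summed over transcripts in the first table, the distal, proximal, 72-base exon and non-coding shares were close in the 2 animals. Those of the 105-base exon and of a variant with 3 added bases differed more. In the second table the distal share differed most, at 42.9% and 39.6%. Distal starts took 54.6% and 55.5% of Pex5l TPM in the first table (55.1% ± 0.634) and proximal starts 45.4% and 44.5% (44.9% ± 0.634). In the second table the order was reversed, with 41.3% ± 2.37 distal, 50.5% ± 0.598 proximal and 8.27% ± 1.77 from the internal start. Among coding transcripts alone proximal starts led in both tables, at 55.8% ± 0.743 in the first and 60.5% ± 0.437 in the second. The distal total falls in that count because 3 of the 4 transcripts with a distal start are non-coding. The annotation gives 7 of the 9 coding transcripts a proximal start and 1 a distal start, so the proximal lead is bound to that annotation.

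The 72-base cassette was in the larger part of Pex5l TPM and the 105-base cassette in the smaller part, in both tables. The first was carried by 56.2% ± 0.473 of TPM (58.8% ± 0.607 in the second table). All 7 coding transcripts with a proximal start carry this exon, and neither of the other 2 coding transcripts does. The 105-base exon was carried by 28.6% and 34.2% in the 2 animals, a mean of 31.4% ± 3.94 (38.5% ± 1.60), and by 22.5% and 27.5% of the coding TPM, a mean of 25.0% ± 3.54 (36.1% ± 1.22). A small variant, in which an exon reaches 127 bases by 3 added bases, was in 14.3% and 17.9%, a mean of 16.1% ± 2.51 (21.5% ± 0.666). Non-coding transcripts made up 19.4% ± 0.0630 of Pex5l TPM (16.6% ± 1.59). The sole annotated transcript that joins a distal start to the 105-base exon is the retained-intron Pex5l-202. The non-coding, 105-base and distal shares are therefore also bound to the annotation.

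**Figure D4:**
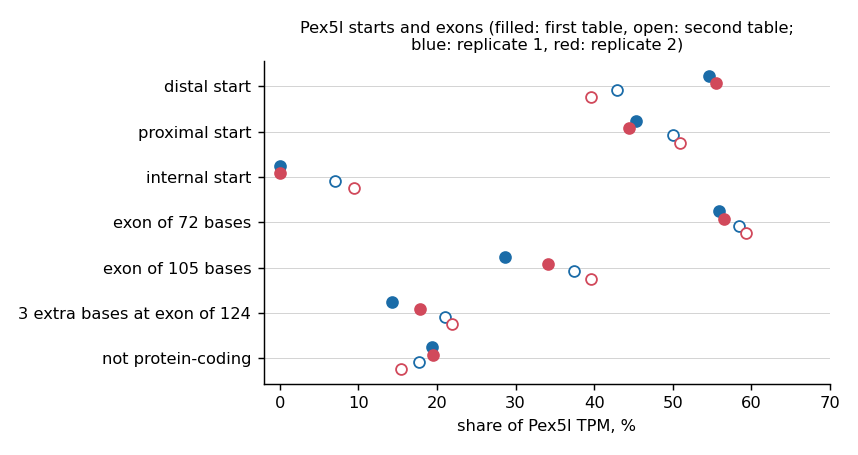
Share of Pex5l TPM in percent carried by transcripts with each start, each cassette exon, the 3 added bases or no coding sequence, 1 point per mouse and table. The 72-base exon sits between 55.8% and 59.3% in every mouse and table, while the distal start is near 55% in the first table and near 41% in the second.

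Single transcripts of Pex5l moved between the animals more than the gene did. Pex5l-211, whose first exon of 1085 bases runs unspliced through the proximal start region, was at 20.2 and 10.1 CPM, a log2 ratio of -1.004 (-1.20 to -0.81), and at -0.997 in the second table. Pex5l-205 had -0.63 (-0.74 to -0.53) and -0.52 in the second table, and Pex5l-212, a single exon retained at the distal start, -0.55 (-0.78 to -0.32) and -0.44. Pex5l-209 had 0.60 (0.48 to 0.72) in the first table and 0.15 in the second, and Pex5l-204 had 0.47 (0.23 to 0.70) and 0.010. Pex5l-206 stayed close to the gene, at -0.097 (-0.18 to -0.011). These intervals come from reads that the authors' programs divided among overlapping transcripts, and do not include the error of that division.

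Annotated genes that share ground with the members carried few counts. Pklr, the pyruvate kinase gene of liver and red cells, overlaps the end of Hcn3 on the opposite strand over 711 exon bases, and was at 0 counts in both libraries. Opposite Pex5l, the antisense genes Gm37459 (340 shared exon bases) and 4930419G24Rik (24 shared bases) each had a single count, both of them in replicate 1 (1 and 0 counts), and the small nuclear RNA gene Gm23214 had 0 in both. Inside introns of Pex5l on its own strand lie 2 genes of the annotation's provisional biotype TEC. Gm19445 had 142 and 80 counts, a log2 ratio of -1.02 (-1.45 to -0.63), and is one of the 95 genes 2-fold apart. Gm37443 had 96 and 49 counts, a ratio of -1.15 (-1.71 to -0.67), under the count minimum. Both ratios were lower than that of Pex5l itself, as were those of Pex5l-211 and Pex5l-212. The retained-intron transcript Pex5l-202, more abundant than either, was not lower than the gene, at 0.071 (-0.084 to 0.23) and -0.090 in the second table. Most of its 11 exons are spliced exons that other Pex5l transcripts share, so its count does not measure retained introns alone. The cause was not tested.

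Other genes of the same pathways were read from lists given by name. Of 14 other channel genes of the cyclic nucleotide-binding superfamily (Cng and Kcnh genes), 6 reached 1 TPM in both animals, and the list median was 0.683 ± 0.0530 TPM. All 6 were ether-a-go-go type potassium channels, led by Kcnh3 at 75.1 ± 7.12, Kcnh7 at 47.1 ± 13.1 and Kcnh5 at 39.8 ± 6.65 TPM. The cyclic nucleotide-gated channels of photoreceptors and olfactory neurons were near 0, and Cnga1 and Cngb3 had 0 counts in both libraries. Hcn2 at 62.2 TPM lay between Kcnh3 and Kcnh7, and Hcn4 lay below all 6.

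Among 15 genes for other proteins reported to bind or modify HCN channels, 12 reached 1 TPM in both animals, with a median of 32.5 ± 2.15 TPM. The highest were Nedd4l, a ubiquitin ligase, at 73.4 ± 13.7, Vapa, a membrane contact protein of the endoplasmic reticulum, at 70.5 ± 5.71, and Magi2, a synaptic scaffold, at 56.2 ± 10.4 TPM. None reached Pex5l at 114 TPM. Kctd3, whose product binds Hcn3 channels, was at 40.9 ± 3.33 TPM. Mrvi1 (Irag1) and Lrmp (Irag2), whose products regulate Hcn4, were as low as Hcn4 or lower, at 1.13 ± 0.0283 and 0.700 ± 0.156 TPM. The lowest was Cav3, a muscle caveolin, at 0.0700 ± 0.0424 TPM. Rab8b, a trafficking GTPase that binds Trip8b, was at 12.02 ± 2.52 TPM.

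Pex5l is a paralog of Pex5, the receptor that carries proteins with a carboxyl-terminal targeting signal into peroxisomes. Pex5 was at 28.8 and 24.7 TPM (26.7 ± 2.89), so that Pex5l exceeded it by 4.45 and 4.06 times in the 2 animals, a mean of 4.25 ± 0.275. All 7 genes of the peroxisomal import list reached 1 TPM, with a median of 10.6 ± 1.24 TPM. After Pex5 came Pex14, its docking partner, at 22.7 ± 0.834 and Pex13 at 12.2 ± 3.43 TPM.

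All 12 genes of other channels active near the resting potential were expressed, with a median of 36.4 ± 8.47 TPM. Among them were Kcnj9, a G protein-activated potassium channel, at 61.6 ± 10.05 and Kcnq3, a voltage-gated potassium channel, at 59.8 ± 9.05 TPM, and Kcnk3, a background potassium channel, was lowest at 9.73 ± 1.55. All 8 genes of cyclic nucleotide synthesis, the source of the HCN channels' ligand, were also expressed, with a median of 41.6 ± 2.63 TPM. Their highest members were the adenylyl cyclase Adcy1 at 142 ± 25.0, the guanylyl cyclase subunit Gucy1b1 at 70.7 ± 5.37 and Adcy2 at 62.6 ± 5.15, and the lowest was Adcy8 at 9.63 ± 0.141 TPM.

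Across these 5 lists no gene averaging 100 or more counts was 2-fold apart between the animals, where 0.753% of all 12615 such genes were. That share is small, so finding none in lists of this size says little about them. Of the near-rest channels 2 of 12 had a log2 ratio above 0, with a median of -0.085, and of the cyclase genes 6 of 8, with a median of 0.055. Of all genes tested, 55.1% were above 0. The HCN partner list had a median of -0.0086, the peroxisomal list 0.056 and the superfamily list -0.071. These counts describe the 2 libraries and were not tested.

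**Figure D5:**
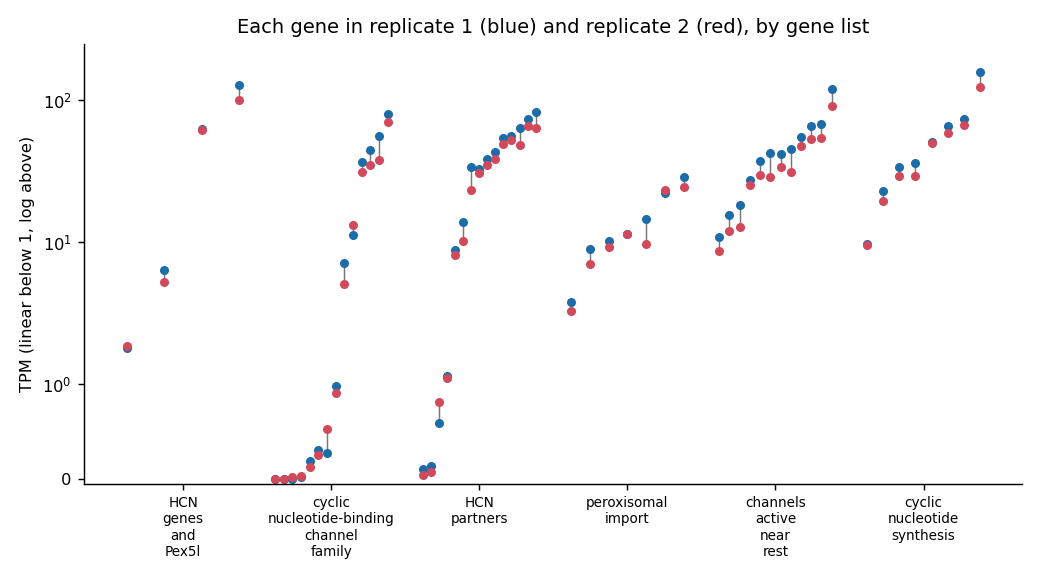
TPM of each gene in replicate 1 (blue) and replicate 2 (red) on an axis that is linear below 1 and logarithmic above, with a grey line joining the 2 mice, for the 4 members and 5 lists. Hcn4 at 1.83 TPM and Hcn3 at 5.83 TPM lie in the lower part of the plot, and Pex5l at 114 TPM lies above all genes of the partner and peroxisomal lists.

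The genes nearest in level to each member were sought among the same channel genes taken by symbol, auxiliary subunits included. By distance in log2(TPM + 1) over the 2 libraries, they were Cacnb1 (63.7 and 60.5 TPM) and Cacng3 (61.1 and 58.8) for Hcn2, and Kcnk10 (6.88 and 5.29) and Kcnh4 (7.14 and 5.10) for Hcn3. For Hcn4 they were Scn9a (1.54 and 1.53) and Kcng4 (2.08 and 1.51), and for Pex5l Scn2b (121 and 111) was among the nearest. With 2 libraries this is a likeness in level alone.

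The HCN transcripts are rich in G and C. Hcn2-202 had a GC content of 65.4%, at percentile 99.2 of 58797 annotated coding transcripts with a median of 50.4%. Hcn3-201 and Hcn4-201 were both at 58.0%, at percentiles 87.3 and 87.1, and Pex5l-206 was at 51.9%, at percentile 57.6. First exons were richer still, at 78.0% for Hcn2, 71.8% for Hcn3 and 71.4% for Hcn4. The effect of base composition on the measured levels was not tested. RefSeq promoter windows (GRCm38.p6, 250 bases before to 50 after the start) were matched for 2 of the 4 genes. The Hcn2 window, chr10:79716384-79716683, had 72.3% GC, 26 CpG sites and 3 matches to GGGCGG on either strand. The Hcn4 window, chr9:58822699-58822998, had 71.7% GC, 31 CpG sites and 2 matches. It ends upstream of the GENCODE start of Hcn4 at 58823412, and so surrounds another start than that of Hcn4-201. Over all 32851 windows the median was 52.7% GC and 7 CpG sites, and 35.7% held a GGGCGG. These matches are letters in a window, and no binding was measured.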

How the data were processed

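Total RNA-seq of left cerebral cortex was available as 3 tables for each of 2 libraries. Per the file headers, the authors' gene table and a first transcript table give expected counts, TPM, FPKM, the percent of its gene's abundance that each transcript takes, and posterior means and SDs of the count (a score of assignment error). A second transcript table gives the authors' estimated counts and TPM from another program. Column names are those that RSEM and kallisto write, the deposited notes give mm10 and GENCODE M21, and the sources used here do not name the aligner, the strand setting or the versions. The mm10 genome is that of C57BL/6J, and loss of reads from the CAST/EiJ allele was not tested.

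Expected counts were rounded to whole numbers for CPM, scaled with TMM (edgeR 4.0.16 in R 4.3.3, on genes averaging 10 or more counts) and given a prior count of 2. Log2 ratios carry 95% Clopper-Pearson (exact binomial) intervals computed on the fraction of reads in replicate 2, and counts carry exact Poisson intervals. Without molecular identifiers, both cover counting error only. The 2-fold rule (mean count of at least 100) is a rule of size. The first table takes 99 bases off each transcript's length and the second 336 and 331 in replicates 1 and 2, which raises the TPM of short transcripts in the second for the same count. Spike-ins took 0.349% and 0.461% of counts. Transcript shares are TPM over the gene's TPM. Expression meant 1 TPM in both libraries. Python 3.11.15, numpy 2.4.6, pandas 2.3.3, scipy 1.17.1, Biopython 1.88 and matplotlib 3.10.9 were used, with DESeq2 1.42.0 for its size factors only. The scaling and log2 ratio step was tested on simulated gene counts with known changes, and the other steps were not tested in this way.

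The members and lists were chosen with earlier results of these data known. Named were the 4 members with their transcripts at 1% or more of the gene, the 3 highest and the lowest gene of each of 5 lists, any list gene 2-fold apart, Pex5, Rab8b and Kctd3, overlapping genes, and the 2 channel genes nearest in level to each member. Some genes that this rule covers are not reported here. The 13 marker lists are given by medians, with the 2 highest and the lowest thalamic marker named. Rn7s1, Rn7s2, Mrvi1, Lrmp, Cnga1 and Cngb3 were named after their values were seen, except that the last 2 also tie as the lowest of their list. The animals are separate per the labels, which also give both 1 donor record. Identity of proteins, planned at first, was replaced by identity of coding exons, since proteins were not used here. Alternatives covered the second table, FPKM, rescaling, size factors, spike-ins, prior and minimum counts, and leaving out each replicate.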

Additional observations from a re-analysis of the deposited data

How the results depend on the processing

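Of 76 values under alternatives that kept both mice, 33 moved by less than 1 SD between the mice (within 1.5 times for the number of genes 2-fold apart). Among them were the log2 ratios of the 4 genes between the mice under DESeq2 size factors, total counts, TMM without a filter on low counts, a prior count of 0.5 and the second table. The limit is loose for these ratios, since that of Hcn3 passed it on going from 0.12 to 0.20 in the second table. Ratios of single transcripts were not among the 76. The 33 also include values that could not move, such as the 100% share of Hcn4-201, the sole annotated transcript of its gene. Mean levels of Hcn2, Hcn3, Hcn4 and Pex5l were 91.3, 7.31, 2.66 and 180 TPM in the second table, 141, 13.1, 4.14 and 256 after rescaling over nuclear protein-coding genes, 124, 9.88, 3.60 and 243 with both changes (added after seeing the data), and 42.1, 3.93, 1.24 and 76.7 in FPKM. With spike-in totals the log2 ratios between the mice were -0.24, -0.32, -0.19 and -0.59 in that order. The level ratio of Hcn2 to Hcn3 was 12.6 and that of Pex5l to Pex5 was 4.60 in the second table, and in expected counts Hcn2 to Hcn4 was 17.5 and Hcn3 to Hcn4 was 1.46, since counts are not corrected for length. The share of Hcn2-202 was 99.7%, that of Hcn3-201 78.5% and that of Pex5l-206 24.7% in the second table, and Hcn3-201 had 92.9% and Pex5l-206 32.4% of expected counts. The number of genes 2-fold apart was 770 with a mean count of at least 10, 2440 with any count and 306 with spike-in totals, against 95. Shares of Pex5l starts and exons were compared after seeing the data, and their values are given with the results. Another 40 values left out 1 mouse and are the other mouse's own value. With 2 mice such a value always lies within 1 SD of the mean, so it says nothing about stability. No paired analysis was possible because both libraries belong to 1 group. Depth limited the non-coding transcripts of Hcn3, which rested on fewer than 15 expected counts each, and Hcn4, whose intervals between the mice were the widest of the 4 genes.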
